A study of Mus musculus with 8 samples.

Results

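Rab GTPases and the Tbc1d proteins that switch them off were followed through every probe set whose platform annotation gives a single gene symbol made of Rab and a number, or starting with Tbc1d and a number. The rule found 90 of the 18193 genes named in this way, read by 194 of the 45101 probe sets in the table. Of these 59 were Rab genes (132 probe sets) and 31 were Tbc1d genes (62 probe sets). 1 of the 31, Tbc1d22bos, is an antisense RNA that the symbol rule takes in. Each probe set is described on its own, since probe sets of 1 gene can read different stretches of its transcripts.

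Rab proteins are small membrane-bound GTPases that mark the compartments of the secretory and endocytic routes. In the GTP-bound form they recruit effectors that move, tether and fuse vesicles. Exchange factors load them with GTP, proteins with a TBC domain speed up GTP hydrolysis, and GDP dissociation inhibitors carry the inactive form through the cytosol. In mouse eggs this machinery is known for cortical granule release at fertilization, for the recycling of surface receptors and for the vesicle-based actin network that positions the spindle.

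The RNA was polysomal, that is, bound to clusters of ribosomes. One group was mouse oocytes arrested at metaphase II of meiosis (MII), with no treatment named in the labels. The other was one-cell embryos that had received α-amanitin, which inhibits RNA polymerase II. Each group had 4 independent replicates, each from a pool of 160 to 500 cells and amplified by 2 rounds of in vitro transcription before 1-colour array hybridization. No strain, age or time after fertilization was named in the labels. Stage and α-amanitin changed together between the groups and cannot be told apart. Signals are relative to the array total, so the amount of an mRNA and its loading onto ribosomes cannot be told apart either, nor can fewer cells holding an mRNA and less of it per cell.

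The one-cell arrays were less alike than the MII arrays. The median signal was 26.9 to 33.8 on the MII arrays and 27.8 to 71.8 on the one-cell arrays (exact permutation test, two-sided p = 0.229). The 18 hybridization control probe sets had a geometric mean of 905 to 1364 on the MII arrays and of 857 to 14879 on the one-cell arrays (exact permutation test, p = 0.143), the highest on one-cell array 1. Both p values compare mean log2 signals between the groups and do not measure how alike the arrays within a group were. All 11 probe sets of 9 oocyte marker genes exceeded the array median on 4 or more arrays, with summed signals of 60331 to 78604 on the MII arrays and 47295 to 72648 on the one-cell arrays. Of the 11, 5 were higher and 2 lower in the one-cell embryos, with Gdf9 at −2.17 and Bmp15 1450210_at at 2.18, so single markers changed while the sums overlapped. Of 15 probe sets for cumulus and granulosa cell markers 5 reached that level and 0 changed, with sums of 426 to 585 and of 369 to 1388, so the highest one-cell array lay above every MII array. Of 13 for sperm markers 3 reached it, with 1 higher and 1 lower, and sums of 225 to 277 and of 227 to 562. The 1 lower, Akap4 1451661_at, reached it only through the MII arrays and had to differ. The part of these other cells and of the uneven controls in the Rab and Tbc1d values was not tested beyond the fits with the control signal as a covariate given below.

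Across the family, polysome signals went both up and down from MII to one-cell arrays. To be tested, a probe set had to exceed the median signal of its array on 4 or more of the 8 arrays, and 120 of the 194 did (82 Rab, 38 Tbc1d). Changes are one-cell minus MII on the log2 scale, taken after an offset of 10 was added to the signal, so they understate the change of dim probe sets. A probe set is called changed at a Benjamini-Hochberg adjusted p under 0.05 in limma over all 23336 probe sets tested. By this rule 47 of the 120 changed, 29 higher and 18 lower in the one-cell embryos. The background over all tested probe sets was 32.1% called, 19.3% higher and 12.8% lower. Of the 82 Rab probe sets 32 were called (39.0%), 21 higher and 11 lower, and of the 38 Tbc1d probe sets 15 (39.5%), 8 higher and 7 lower. The median change was 0.26 over the Rab, 0.14 over the Tbc1d and 0.17 over all tested probe sets, so the family lay near the array as a whole. 3 of the 47 passed the filter only through the one-cell arrays and had to differ. A called change of at least 4-fold was seen in 10 of the 120, against 8.93% of all tested probe sets. The 2 groups of arrays did not overlap for 44 of the 120, against 32.6% of all tested.

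**Figure D1:**
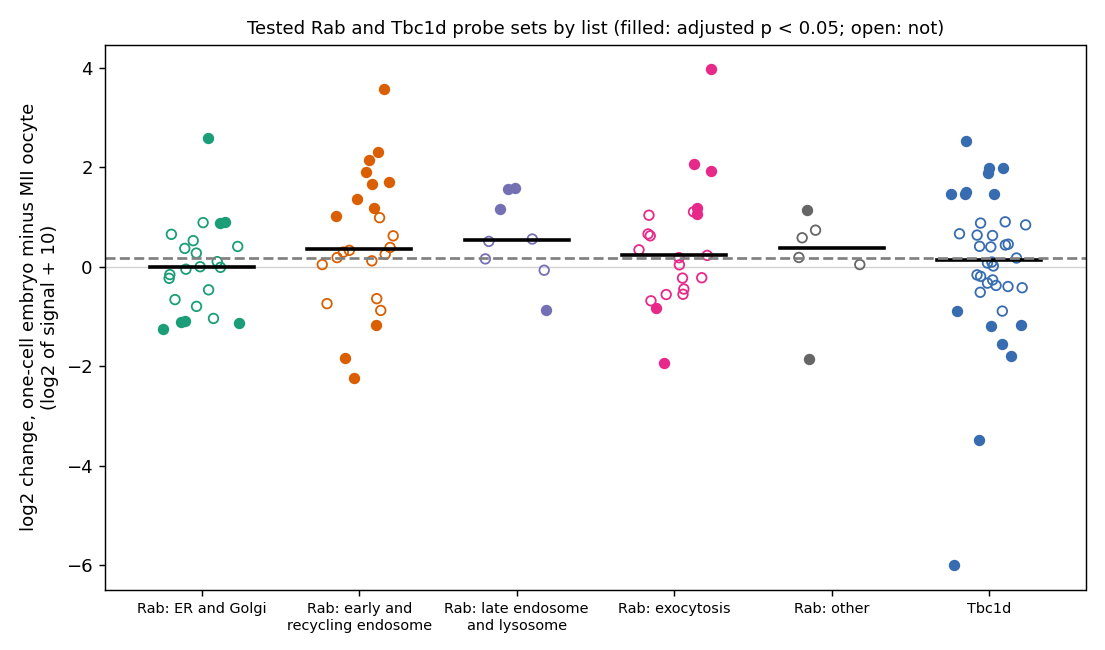
Change in polysome signal (one-cell minus MII, log2) for the 120 Rab and Tbc1d probe sets tested, by list and coloured by list; each point is 1 probe set, filled where limma called it, each bar is the median of a list and the dashed line the median of all tested probe sets, 0.17. The medians run from −0.01 for the endoplasmic reticulum and Golgi Rabs to 0.54 for the late endosome and lysosome Rabs, and the Tbc1d list holds the lowest point, −6.00.

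The split into higher and lower depended on how arrays were scaled. In what follows, a call lost without certain arrays was lost when each of them alone was left out, and the control covariate is the signal of the hybridization controls. With each array centred on its median, 21 Rab probe sets were called (12 higher, 9 lower) and 9 Tbc1d probe sets (4 higher, 5 lower). With quantile normalization the Rab calls were 17 higher and 14 lower, and the Tbc1d calls 5 and 6. The share of higher calls over all tested probe sets went from 60.2% to 50.8% and 48.7% in the same fits. The median of all tested probe sets went from 0.17 to −0.15 and −0.12. Relative to that median, the Rab median was 0.09, 0.09 and 0.10 and the Tbc1d median −0.03, −0.03 and 0.15.

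The other 74 probe sets were too dim for the test, and with them all probe sets of 23 genes. Among those were the epithelial Rab25, the brain-enriched Rab3c, Rab20, Rab26 and Tbc1d4, an insulin-regulated GTPase activator of muscle and fat. Of the 74, 42 lay above the array median on none of the 8 arrays. Without the filter 27 of 132 Rab and 14 of 62 Tbc1d probe sets were called, against 15.4% of all 45037.

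The deepest fall in the family was that of Tbc1d14, a TBC-domain protein that works on recycling endosomes and limits autophagosome formation. Probe set 1420196_s_at read 12733, 13464, 11231 and 13854 on MII arrays 1 to 4 and 175, 152, 216 and 227 on one-cell arrays 1 to 4. All 4 one-cell arrays lay far below all 4 MII arrays, and the mean signal was 66.6-fold lower in the one-cell embryos. The log2 change was −6.00 ± 0.28 (SE, n = 4 and 4), adjusted p = 4.36e-09. A second probe set, 1449772_at, read 322, 418, 200.2 and 310.2 on MII arrays 1 to 4 and 5.6, 42.1, 27.9 and 9.5 on one-cell arrays 1 to 4. Its groups did not overlap either, and it fell as well (−3.49 ± 0.41, adjusted p = 8.32e-06). The third went the other way: 1432027_a_at read 73.5, 52.5, 51.4 and 43.6 on MII arrays 1 to 4 and 315, 151, 252 and 299 on one-cell arrays 1 to 4. Every one-cell array was above every MII array, and the change was 1.99 ± 0.32, adjusted p = 0.000165. The RefSeq gene table (GRCm38.p6) lists 3 curated and 7 predicted transcripts of Tbc1d14, on chromosome 5, and which of them each probe set reads was not tested.

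Rab23, a negative regulator of hedgehog signalling with a role at the primary cilium, was the other gene with calls in both directions. Its probe set 1454876_at read 790.4, 851, 576 and 535 on MII arrays 1 to 4 and 71.1, 274, 277 and 188 on one-cell arrays 1 to 4. The highest one-cell array, 277, lay below the lowest MII array, 535, and the change was −1.85 ± 0.37, adjusted p = 0.00113. With the hybridization controls as a covariate it was −1.14. Probe set 1452113_a_at read 96, 145, 146 and 105 on MII arrays 1 to 4 and 294, 239, 267 and 324 on one-cell arrays 1 to 4. Here every one-cell array was higher, by 1.14 ± 0.28, adjusted p = 0.00462. That call was lost with median centring and quantile normalization (adjusted p = 0.0548 to 0.0746). The third, 1422399_a_at, had a change of 0.19 ± 0.40, adjusted p = 0.779. RefSeq lists 2 curated and 2 predicted transcripts of Rab23, on chromosome 1.

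**Figure D2:**
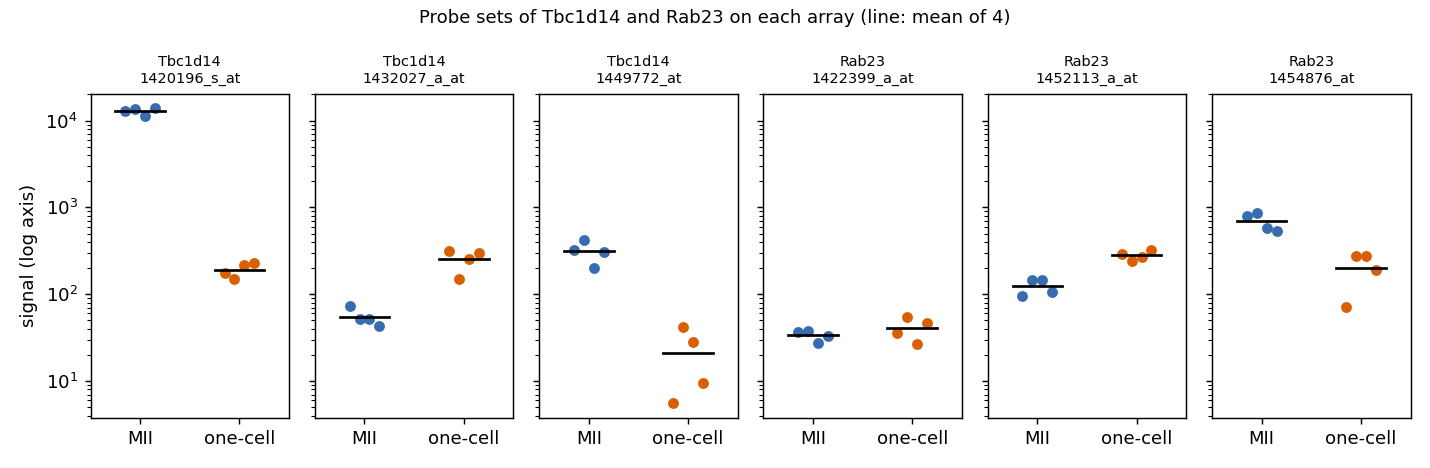
Signal on each of the 4 MII and 4 one-cell arrays (log axis, arbitrary units) for every tested probe set of Tbc1d14 and Rab23; points are single arrays and lines the mean of 4. Tbc1d14 1420196_s_at lies at 11231 or more on the MII arrays and at 227 or less on the one-cell arrays, while 1432027_a_at lies at 73.5 or less and 151 or more.

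Besides Tbc1d14, 7 Tbc1d genes rose and 5 fell in at least 1 probe set. Tbc1d10b, a GTPase activator with Rab35 among its substrates, rose most. It read 109, 96.2, 243 and 149.5 on MII arrays 1 to 4 and 768, 580.2, 1123 and 1065 on one-cell arrays 1 to 4. The lowest one-cell array was above every MII array, and the change was 2.52 ± 0.33, adjusted p = 2.38e-05. Its relatives Tbc1d10a (0.44 ± 0.38) and Tbc1d10c (0.63 ± 0.57) were not called. Tbc1d20, which switches off Rab1 and Rab18 at the endoplasmic reticulum, read 26.1, 8.4, 9.8 and 22.5 on MII arrays 1 to 4 and 104, 89.8, 95.5 and 78.1 on one-cell arrays 1 to 4 with probe set 1426644_at. All 4 MII values were at or under their array's median, so this probe set was tested only through the one-cell arrays and the size of its change is poorly set. The change was 1.99 ± 0.40, adjusted p = 0.00114, and 1.10 with an offset of 50. The gene's other probe set, 1452140_at, was not called (0.67 ± 0.31).

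Tbc1d1, a relative of Tbc1d4 that acts on glucose transporter vesicles, rose by 1.88 ± 0.37, adjusted p = 0.000988 in 1419446_at. Its brightest probe set, 1419447_s_at, did not pass (0.18 ± 0.25). Tbc1d25, a GTPase activator for Rab33b in autophagy, rose by 1.46 ± 0.37, adjusted p = 0.00604. That call was lost with median centring and quantile normalization (adjusted p = 0.0529 to 0.0767). Tbc1d19 rose by 1.46 ± 0.32, adjusted p = 0.00236. Its call was lost with median centring (adjusted p = 0.126). Tbc1d9b rose by 1.47 ± 0.43, adjusted p = 0.0154 in 1428596_at. The Tbc1d9b call was lost without MII array 3 or one-cell array 4 (1.03 to 1.19, adjusted p = 0.0583 to 0.0665), and with the control covariate, median centring and quantile normalization (adjusted p = 0.0929 to 0.128). Tbc1d30, which acts on Rab8 at the cilium, rose by 1.51 ± 0.52, adjusted p = 0.0367. The Tbc1d30 call was lost without MII arrays 1 or 4 or one-cell arrays 1 or 2 (0.97 to 1.56, adjusted p = 0.0591 to 0.0992), and with array weights, the control covariate, median centring, no filter on dim probe sets and quantile normalization (adjusted p = 0.0509 to 0.336).

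Among those that fell, Tbc1d23, an inactive family member that ties endosome-derived vesicles to Golgi golgins, read 628, 299, 539 and 329 on MII arrays 1 to 4 and 123, 93.1, 177 and 89.9 on one-cell arrays 1 to 4 in 1426899_at. The groups did not overlap (−1.79 ± 0.32, adjusted p = 0.00047), while 1452228_at was not called (−0.19 ± 0.32). Tbc1d15, a GTPase activator for the late endosomal Rab7, fell by 1.55 in 1416062_at (SE 0.32, adjusted p = 0.00126). Its other probe sets changed by −0.37 and −0.89 without passing. Tbc1d32, needed for cilium assembly, changed by −1.16 ± 0.30, adjusted p = 0.0066. Tbc1d2b, a GTPase activator for Rab22a, changed by −1.18 ± 0.36, adjusted p = 0.019. The Tbc1d2b call was lost without MII array 2 (−0.98, adjusted p = 0.0632), and with the control covariate and median centring (adjusted p = 0.0544 to 0.18). Tbc1d8 changed by −0.89 ± 0.33, adjusted p = 0.0462 in 1416996_at. The Tbc1d8 call was lost without MII arrays 1, 2, 3 or 4 or one-cell arrays 1, 2 or 4 (−1.004 to −0.64, adjusted p = 0.053 to 0.114), and with array weights, the control covariate, median centring, no filter on dim probe sets, no variance trend and quantile normalization (adjusted p = 0.0588 to 0.267). The 23 Tbc1d probe sets not called included all those of Tbc1d5, Tbc1d13, Tbc1d16, Tbc1d22a, Tbc1d22b, Tbc1d31 and Tbc1d7, the third subunit of the TSC complex.

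**Figure D3:**
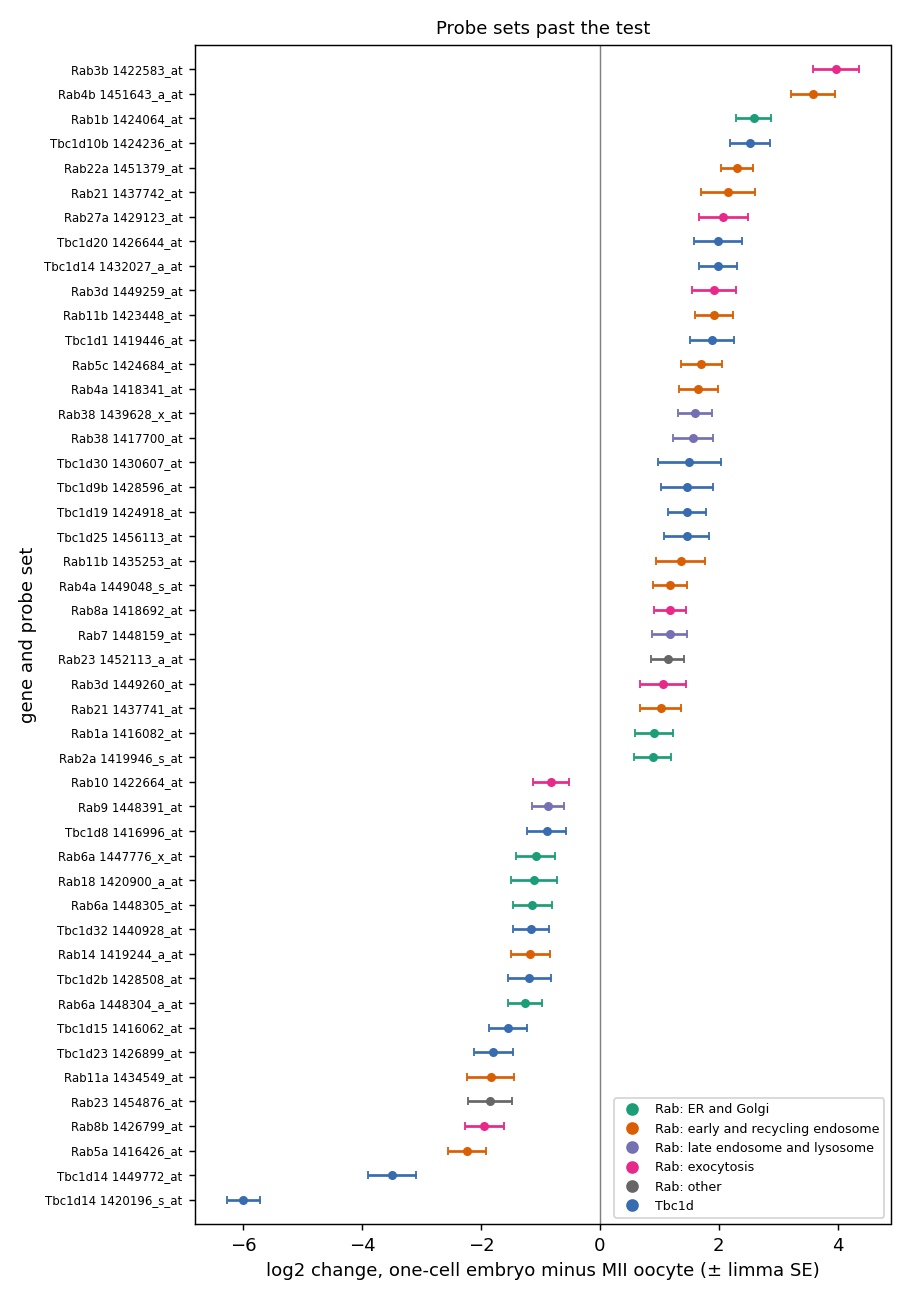
Change (one-cell minus MII, log2) of the 47 called Rab and Tbc1d probe sets, coloured by list, with bars for ± 1 limma standard error. They run from −6.00 for Tbc1d14 1420196_s_at to 3.97 for Rab3b.

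Of the Rabs of the endoplasmic reticulum and Golgi, 23 probe sets were tested, 3 rose, 4 fell and 16 did not pass, with a median of −0.01. The called share, 30.4%, was near the background of 32.1%. Rab1b, which with Rab1a drives transport from the endoplasmic reticulum to the Golgi, read 48.8, 99.6, 86.6 and 97.7 on MII arrays 1 to 4 and 557, 474, 468 and 659 on one-cell arrays 1 to 4. The lowest one-cell array was at 468 and the highest MII array at 99.6, and the change was 2.59 ± 0.29, adjusted p = 6.72e-06. Rab1a read 166, 100.0, 192 and 116 on the MII arrays, against 246, 194, 403 and 274 on the one-cell arrays. Its groups did not overlap, but the change was small (0.91 ± 0.31, adjusted p = 0.0351). The Rab1a call was lost without MII arrays 2 or 4 or one-cell arrays 3 or 4 (0.72 to 0.90, adjusted p = 0.0748 to 0.106), and with median centring, no filter on dim probe sets, no variance trend and quantile normalization (adjusted p = 0.0553 to 0.321).

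Rab6a, which runs retrograde transport within and towards the Golgi, fell in all 3 of its tested probe sets. Probe set 1448304_a_at read 2001, 2185, 2442 and 2232 on MII arrays 1 to 4 and 617, 1104, 1134 and 932 on one-cell arrays 1 to 4. Each one-cell array was below each MII array, with one-cell array 1 the lowest, and the change was −1.25 ± 0.29, adjusted p = 0.00305. Probe set 1447776_x_at read 1893, 3545, 2608 and 3210.3 on MII arrays 1 to 4 and 821, 1664, 1459 and 1377 on one-cell arrays 1 to 4. Its highest one-cell array was below its lowest MII array (−1.08 ± 0.32, adjusted p = 0.0159). Probe set 1448305_at read 2784, 1936, 2492 and 2675 on MII arrays 1 to 4 and 605, 1198, 1584 and 1303 on one-cell arrays 1 to 4, again without overlap (−1.14 ± 0.33, adjusted p = 0.013). The call of 1447776_x_at was lost with the control covariate, median centring and quantile normalization (adjusted p = 0.0507 to 0.107). That of 1448305_at was lost with the control covariate and median centring (adjusted p = 0.0578 to 0.159). Rab18, found on the endoplasmic reticulum and lipid droplets, fell in 1420900_a_at (−1.10 ± 0.39, adjusted p = 0.038) although its groups overlapped. The Rab18 call was lost without MII arrays 1 or 3 or one-cell arrays 1 or 4 (−1.06 to −0.83, adjusted p = 0.0755 to 0.139), and with the control covariate, median centring, no filter on dim probe sets and no variance trend (adjusted p = 0.058 to 0.311). Rab2a, a Golgi Rab, had 6 tested probe sets. 1 of them, 1419946_s_at, read 72.8, 54.4, 54.5 and 53.3 on MII arrays 1 to 4 and 108, 151, 104 and 109 on one-cell arrays 1 to 4. It rose by a margin that left no overlap (0.89 ± 0.31, adjusted p = 0.0359), and the other 5 lay between −0.80 and 0.65 without passing. The Rab2a call was lost without MII arrays 2, 3 or 4 or one-cell arrays 2 or 4 (0.77 to 0.92, adjusted p = 0.065 to 0.108), and with median centring, no filter on dim probe sets and quantile normalization (adjusted p = 0.0783 to 0.365). Rab2b, Rab33b, Rab36, Rab43 and Rab6b were tested and not called.

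Early and recycling endosome Rabs had 24 tested probe sets, of which 9 rose, 3 fell and 12 did not pass (median 0.36), against 32.1% called and a median of 0.17 over all tested probe sets. 1 of the 9, Rab4b, was tested only through the one-cell arrays. The members that rose were Rab4a, Rab4b, Rab5c, Rab11b, Rab21 and Rab22a, and those that fell were Rab5a, Rab11a and Rab14. Rab22a, which acts at early endosomes, rose in 1451379_at, with 127, 142, 134 and 151 on MII arrays 1 to 4 and 849.8, 667, 829 and 578 on one-cell arrays 1 to 4. The lowest one-cell array was 578 and the highest MII array 151, and the change was 2.30 ± 0.26, adjusted p = 6.97e-06. Its other tested probe set, 1424504_at, was not called (0.30 ± 0.42).

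Rab5a and Rab5c, closely related Rabs that drive fusion of early endosomes, changed in opposite directions. Rab5a read 651, 413, 655 and 408 on MII arrays 1 to 4 and 61.1, 139.6, 139 and 89.5 on one-cell arrays 1 to 4. The highest one-cell value was 139.6 and the lowest MII value 408 (−2.24 ± 0.32, adjusted p = 5.81e-05). Rab5c read 82.9, 137, 135 and 167 on MII arrays 1 to 4 and 819, 352, 270.4 and 459 on one-cell arrays 1 to 4. It was higher on each one-cell array than on any MII array (1.70 ± 0.35, adjusted p = 0.00121), and by 1.06 with the hybridization controls as a covariate. The last of the trio, Rab5b, changed by 0.99 ± 0.41, adjusted p = 0.081 and was not called.

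Rab11a and Rab11b, the Rabs of the recycling endosome, also parted. Rab11a vesicles are the ones known to carry actin nucleators in the mouse oocyte. Rab11a read 2746, 1867, 2421 and 2063 on MII arrays 1 to 4 and 257, 903, 1246 and 516 on one-cell arrays 1 to 4 with 1434549_at. One-cell array 1 was lowest and one-cell array 3 highest, still under every MII array (−1.83 ± 0.40, adjusted p = 0.00203). With the control signal as a covariate this change was −0.92 (adjusted p = 0.0274). Its other probe set, 1449256_a_at, was not called (0.39 ± 0.39). Rab11b read 35.1, 96.6, 69.7 and 73.6 on MII arrays 1 to 4 and 239, 342, 222 and 310.1 on one-cell arrays 1 to 4 with 1423448_at, again with no overlap (1.92 ± 0.32, adjusted p = 0.000265). The dimmer 1435253_at rose by 1.36 ± 0.41, adjusted p = 0.0177. The call of 1435253_at was lost without MII array 3 or one-cell array 4 (0.99 to 1.24, adjusted p = 0.0623 to 0.0696), and with the control covariate, median centring and quantile normalization (adjusted p = 0.061 to 0.14).

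Rab4a and Rab4b, which act in fast recycling, both rose. Rab4b read 4.8, 4.4, 6.9 and 4.2 on MII arrays 1 to 4 and 235, 154, 148 and 156 on one-cell arrays 1 to 4. All 4 MII values were under their array's median, so the probe set was tested only through the one-cell arrays, and the change of 3.58 ± 0.38, adjusted p = 3.47e-06 is poorly set. It was 2.00 with an offset of 50. Rab4a rose by 1.66 ± 0.33, adjusted p = 0.00113 in 1418341_at and by 1.18 ± 0.29, adjusted p = 0.00447 in 1449048_s_at. The second of these calls was lost with median centring (adjusted p = 0.115). Rab21, known for integrin endocytosis, read 34.6, 62.6, 10.8 and 45.1 on MII arrays 1 to 4 and 434, 117, 156 and 145 on one-cell arrays 1 to 4 with 1437742_at. MII array 3 was lowest and one-cell array 1 highest, and the groups did not overlap (2.15 ± 0.45, adjusted p = 0.00152). The groups overlapped in 1437741_at (1.02 ± 0.34, adjusted p = 0.031). The call of 1437741_at was lost without MII arrays 2 or 4 or one-cell arrays 2, 3 or 4 (0.76 to 1.08, adjusted p = 0.0534 to 0.112), and with median centring and no variance trend (adjusted p = 0.0577 to 0.358).

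Rab14, which links the Golgi and endosomes, had 5 tested probe sets and 1 call. It was the probe set 1419244_a_at, with 3317, 2832, 2831 and 3033 on MII arrays 1 to 4 and 732, 1864, 1695 and 1329 on one-cell arrays 1 to 4. All one-cell arrays were lower, one-cell array 1 the most (−1.17 ± 0.33, adjusted p = 0.0107). That call was lost with the control covariate and median centring (adjusted p = 0.0514 to 0.119). The other 4 lay between −0.88 and 0.33. Rab15, Rab17, Rab31 and Rab35 were tested and not called.

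Late endosome, lysosome and lysosome-related Rabs had 8 tested probe sets, with 3 higher, 1 lower and 4 not called (median 0.54), against the same 32.1% and 0.17 over all tested. Rab38, which sorts cargo to melanosomes and other lysosome-related organelles, rose in both of its probe sets. Probe set 1439628_x_at read 556, 903, 905 and 955 on MII arrays 1 to 4 and 2233, 2236, 2637 and 2839.8 on one-cell arrays 1 to 4. MII array 1 was lowest and all one-cell arrays were above every MII array (1.60 ± 0.29, adjusted p = 0.000432). Probe set 1417700_at read 383, 209, 461 and 327 on MII arrays 1 to 4 and 628, 1105, 1647 and 866 on one-cell arrays 1 to 4, also without overlap (1.56 ± 0.34, adjusted p = 0.00186). The call of 1417700_at was lost with median centring (adjusted p = 0.0952). Rab7, which drives fusion of late endosomes with lysosomes, read 583, 394, 413 and 509.9 on MII arrays 1 to 4 and 1571, 1026, 675 and 1196 on one-cell arrays 1 to 4 with 1448159_at. The groups did not overlap (1.17 ± 0.30, adjusted p = 0.00655), while 1415734_at was not called (0.56 ± 0.39). The Rab7 call was lost with the control covariate and median centring (adjusted p = 0.0814 to 0.0991).

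Rab9, which returns mannose 6-phosphate receptors from late endosomes to the Golgi, was the 1 late endosomal Rab that fell. It read 793, 811, 822 and 818 on MII arrays 1 to 4 and 299, 568, 501 and 429 on one-cell arrays 1 to 4. The MII arrays were nearly equal and every one-cell array was lower (−0.88 ± 0.27, adjusted p = 0.0212). The Rab9 call was lost without MII array 3 or one-cell array 4 (−0.87 in both, adjusted p = 0.0527 and 0.0542), and with the control covariate and median centring (adjusted p = 0.0625 to 0.149). Rab29, Rab32 and Rab39b were tested and not called.

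Exocytosis and secretory granule Rabs had 21 tested probe sets, with 5 higher, 2 lower and 14 not called (33.3% called, median 0.23). Over all tested probe sets 32.1% were called and the median was 0.17. Rab3b, of the Rab3 group that acts in regulated exocytosis, rose in its 1 tested probe set. It read 12.7, 10.9, 9.6 and 24.8 on MII arrays 1 to 4 and 589.9, 311, 189 and 504 on one-cell arrays 1 to 4. All 4 MII values were under the array median, so it too was tested only through the one-cell arrays, and its change of 3.97 ± 0.38, adjusted p = 1.50e-06 is poorly set in size. Rab27a, known with Rab3a for cortical granule traffic in mouse eggs, rose in 1429123_at, with 172, 371, 332 and 457 on MII arrays 1 to 4 and 3325, 877, 899.6 and 1296 on one-cell arrays 1 to 4. One-cell array 1 stood well above the other one-cell arrays, which were still above every MII array (2.08 ± 0.41, adjusted p = 0.000934), and with the control covariate the change was 1.27. The 3 other Rab27a probe sets had changes of 1.04, 1.11 and 0.04 and did not pass. Rab3a itself was not called in either probe set (−0.22 ± 0.54 and 0.66 ± 0.34).

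Rab3d, a Rab of zymogen and other dense granules, gave different answers in different probe sets. Probe set 1449259_at read 81.3, 33.7, 105 and 154 on MII arrays 1 to 4 and 419.5, 305, 413 and 262 on one-cell arrays 1 to 4. The groups did not overlap (1.92 ± 0.37, adjusted p = 0.000811). Probe set 1449260_at rose by 1.06 ± 0.39, adjusted p = 0.0462. The call of 1449260_at was lost without MII arrays 1, 2 or 3 or one-cell arrays 1, 2 or 4 (0.77 to 1.13, adjusted p = 0.0649 to 0.162), and with array weights, the control covariate, median centring, no filter on dim probe sets, no variance trend, an offset of 1 and quantile normalization (adjusted p = 0.0504 to 0.41). The brightest, 1418890_a_at, and 1418891_a_at changed by −0.45 and −0.23 and were not called.

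Rab8a and Rab8b, which direct vesicles to the plasma membrane and the cilium, had opposite calls in 1 probe set each. Rab8a read 131, 136, 169 and 127 on MII arrays 1 to 4 and 443, 282, 292 and 323 on one-cell arrays 1 to 4 with 1418692_at. The one-cell arrays were all higher (1.18 ± 0.27, adjusted p = 0.00332). The other tested Rab8a probe set, 1440620_at, was not called and its groups overlapped (0.34 ± 0.40, adjusted p = 0.576). Rab8b read 2609, 1239, 3422 and 1807 on MII arrays 1 to 4 and 443, 565, 737 and 471 on one-cell arrays 1 to 4. The highest one-cell array was at 737 and the lowest MII array at 1239 (−1.94 ± 0.33, adjusted p = 0.000297). Rab10, a close relative of Rab8, had 1 call of 3 probe sets, 1422664_at, whose groups overlapped (−0.82 ± 0.30, adjusted p = 0.0469). The Rab10 call was lost without MII arrays 1, 3 or 4 or one-cell arrays 2, 3 or 4 (−0.87 to −0.69, adjusted p = 0.0614 to 0.144), and with the control covariate, median centring, no filter on dim probe sets, no variance trend and quantile normalization (adjusted p = 0.0688 to 0.169). Rab12, Rab13, Rab27b and Rab37 were tested and not called, as were Rab28 and Rab40c, which belong to none of the routes above.

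Several Rab pairs with nearly the same function thus had opposite calls, and their changes were set side by side. Genes that share a number were taken as a family and each was represented by its brightest tested probe set, a comparison chosen after the values had been seen. It gave 12 families and 18 pairs. In 3 pairs the calls were opposite, in 2 both genes rose, in 0 both fell and in 4 neither was called. The change of Rab5a minus that of Rab5c was −3.94, that of Rab11a minus Rab11b −3.75, and that of Rab8a minus Rab8b 3.12. These calls rest on the brightest probe set: by the mean over tested probe sets Rab11a (−0.72 ± 0.38, adjusted p = 0.166) and Rab8a (0.76 ± 0.29, adjusted p = 0.0556) were not called, and of the 3 pairs Rab5a and Rab5c alone, each read by a single tested probe set, had opposite calls. An exact permutation test of the within-array differences passed for none of the 18 pairs after Benjamini-Hochberg adjustment (lowest adjusted p = 0.0514). The smallest p that 4 against 4 arrays allow, 0.0286, was reached by 10 pairs. Pairs of other genes were not compared, so the 10 have no background beside them. The 3 pairs with opposite calls had to reach this p, since neither gene's groups overlapped, so it adds nothing to their calls. Of the others, Rab3a with Rab3b, Rab3b with Rab3d and Rab4a with Rab4b rest on Rab3b and Rab4b, which were tested only through the one-cell arrays. Rab1a and Rab1b, which both rose, also reached that p, and the change of Rab1a minus that of Rab1b was −1.68.

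**Figure D4:**
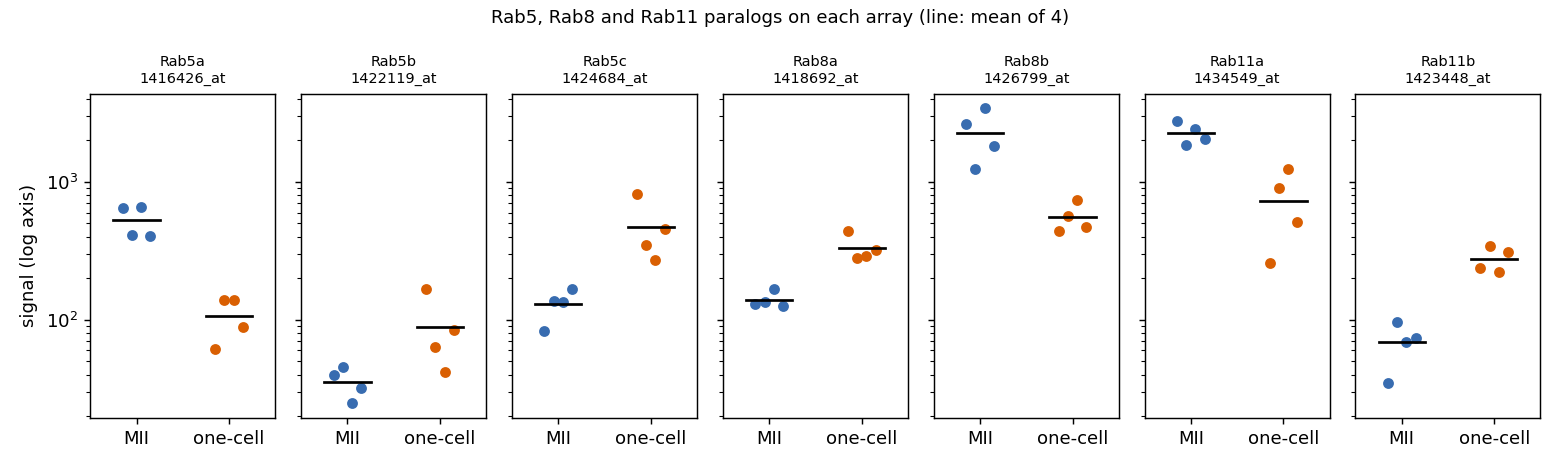
Signal on each of the 4 MII and 4 one-cell arrays (log axis, arbitrary units) for the Rab5, Rab8 and Rab11 genes, each by its brightest tested probe set; points are single arrays and lines the mean of 4. The one-cell arrays lie below all MII arrays for Rab5a, Rab8b and Rab11a and above them for Rab5c, Rab8a and Rab11b.

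A gene's probe sets often disagreed. Of the 32 genes with at least 2 tested probe sets, 5 were called in all of them in 1 direction, 9 in none, 16 in some only, and Tbc1d14 and Rab23 in both directions. The brightest probe set of each gene was set against each of its others, which gave 53 pairs. In 15 pairs the differences did not overlap between the groups (exact permutation test, p = 0.0286, the smallest possible). How often pairs of other genes did so was not counted, so the 15 have no background beside them. After adjustment over the 53 pairs 0 passed, with a lowest adjusted p of 0.101 in the exact test. Many more than 15 pairs would have had to reach the smallest p for any to pass. A limma fit on such differences over all genes, added after the values had been seen, called 13 of the 53 (24.5%), against 24.8% of the 7650 pairs of all genes, so disagreement in this family was about as common as on the whole array. The largest were Tbc1d14 (−7.99 ± 0.34 between 1420196_s_at and 1432027_a_at), Rab23 (−2.99 between 1454876_at and 1452113_a_at), Rab3d (−2.37) and Rab11a (−2.23). These Tbc1d14 and Rab23 probe sets had opposite calls without overlap, so their place among the 15 adds nothing to those calls. The Tbc1d20 pair, in the 15 and the 13, rests on 1426644_at, tested only through the one-cell arrays. By the brightest probe set 29 of 67 genes were called (17 higher, 12 lower), and by the mean over probe sets 28 (19 higher, 9 lower). The share of all genes called in these gene-level fits was not counted, so these counts have no background beside them.

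**Figure D5:**
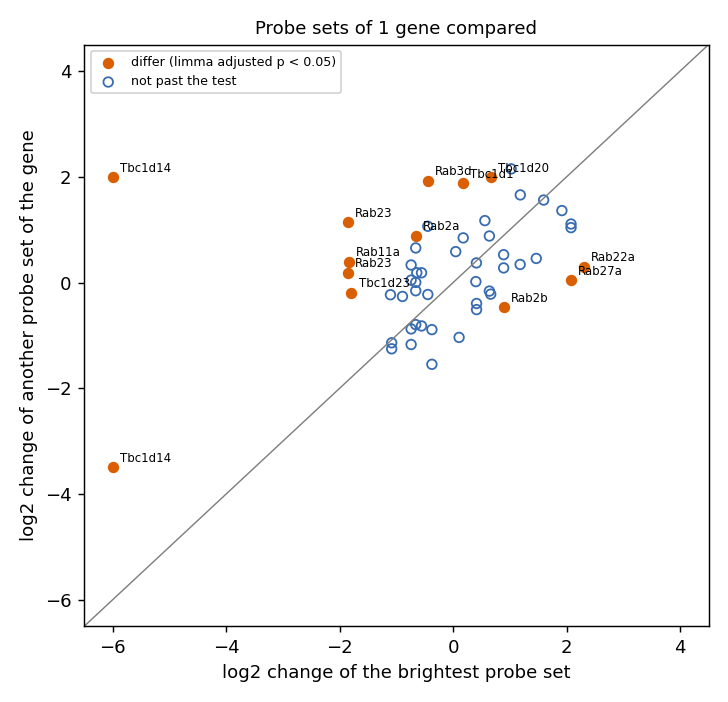
Change of the brightest tested probe set of each gene (horizontal) against that of each of its other tested probe sets (vertical), both one-cell minus MII on the log2 scale; each point is 1 of 53 pairs and the diagonal marks equal change. Filled points mark the 13 pairs called different by limma, among them Tbc1d14, at −6.00 and 1.99.

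The proteins that load, carry and read Rabs were taken from 4 lists with 132 tested probe sets for 73 genes. Of these 57 were called (43.2%, against 32.1% of all tested probe sets), 37 higher and 20 lower, with a median of 0.32. Among the 20, Gcc2 1451800_at and Dennd1b 1428829_at passed the filter only through the MII arrays and had to differ. With arrays centred on their medians 24 were higher and 18 lower, and with quantile normalization 26 and 23. The carriers and prenylation factors had 17 tested probe sets, 9 higher, 0 lower and 8 not called. The 9 came from 3 of the 7 genes, most of them from Gdi2. Gdi2, a GDP dissociation inhibitor, rose in all 6 of its probe sets, by 1.59 to 2.62. The call of 1420815_at was lost with median centring (adjusted p = 0.12). That of 1431645_a_at was lost without MII array 2 (1.18, adjusted p = 0.0808), without one-cell array 1 (1.14, adjusted p = 0.0624) and with the control covariate, median centring, quantile normalization and no filter (adjusted p = 0.0526 to 0.208). The probe set with the smallest p, 1456581_x_at, read 814, 1312, 681 and 749.8 on MII arrays 1 to 4 and 6091, 4477, 4739 and 6262 on one-cell arrays 1 to 4, with every one-cell array above every MII array (2.62 ± 0.31, adjusted p = 9.18e-06). The Rab escort proteins Chm and Chml were not called in any of their 4 tested probe sets.

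Exchange factors had 36 tested probe sets, 7 higher, 9 lower and 20 not called (44.4% called). Of all tested probe sets 32.1% were called, 19.3% higher and 12.8% lower. Rab3il1, an exchange factor for Rab8 and a partner of Rab3a, rose in both of its tested probe sets (2.89 ± 0.32, adjusted p = 5.75e-06, and 2.77 ± 0.35, adjusted p = 1.81e-05), while 4 more were too dim to test. Dennd2a, of the DENN-domain exchange factors, fell in 1 of 2 (−1.96 ± 0.25, adjusted p = 2.24e-05). Other GTPase activators had 20 tested, 5 higher, 3 lower and 12 not called (40.0% called). Sgsm1 (1.60 ± 0.31, adjusted p = 0.000758) and Tbck (1.70 ± 0.41, adjusted p = 0.00404) were higher. Evi5, a GTPase activator for Rab11, was lower (−1.53 ± 0.38, adjusted p = 0.00534, but adjusted p = 0.0823 with the control covariate). Effectors had 59 tested, 16 higher, 8 lower and 35 not called (40.7% called, against the same 32.1%). Myo5b, the myosin motor that binds Rab11, rose by 3.20 ± 0.27, adjusted p = 4.42e-07 in 1452298_a_at, from a mean signal of 195 to 1905. Its probe set 1437698_at was not called (0.57 ± 0.27). The gene's brightest probe set, 1441104_at, fell from a mean of 3059 to 1631 (−0.96 ± 0.32, adjusted p = 0.0278). The latter call was lost without MII arrays 1, 2 or 4 or one-cell array 4 (−0.97 to −0.91, adjusted p = 0.0556 to 0.0723) and with the control covariate, median centring, quantile normalization and no filter (adjusted p = 0.0526 to 0.2). Rph3al, an effector of Rab3 and Rab27, rose by 3.67 ± 0.34, adjusted p = 9.97e-07, and Rufy1, an effector of Rab4 and Rab14, by 2.63 ± 0.26, adjusted p = 1.85e-06. Besides Myo5b, Myo5a and Gapvd1 had probe sets called in both directions, 3 genes in all.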

How the data were processed

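Polysomal RNA of 4 batches of MII oocytes and 4 of α-amanitin-treated one-cell embryos was measured on 1-colour arrays. The values are linear intensities, as deposited by the authors. The software, the scaling method and the build were not given in the sources used here. Trimmed of 2% of probe sets at either end, the mean intensity was 150.0 on each array, a common scaling that was kept. The labels call the replicates independent.

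An offset of 10 was added before log2, and probe sets that exceeded the median on 4 or more of 8 arrays were kept. limma 3.58.1 in R 4.3.3 (lmFit, eBayes with trend, two-sided, Benjamini-Hochberg over the 23336 kept) gave the changes. Exact permutation tests were run in Python 3.11.15, and scipy 1.17.1 was used for the trimmed means. The procedure was tested on simulated data. The 64 control probe sets were left out of the tests. All 90 symbols matched the RefSeq gene table. Every member that was called is named, with values per array for the 3 largest changes in each direction of each list whose groups did not overlap and for Tbc1d14 and Rab23. Of each of the 4 partner lists the genes of the 3 probe sets with the smallest p are named. In the carrier and prenylation list all 3 were of Gdi2. Rab5c, Rab8a and Rab11b, shown per array, and further partner genes were chosen after their values were seen. Members, lists and tests were chosen with earlier results of these data known, and the lists come from general knowledge of the genes. The adjusted p values are from limma, except those of the exact permutation tests on paralog pairs and on pairs of probe sets. Alternatives covered offset, filter, array scaling, variance model, array weights, the control signal as a covariate, the replicate number as a block and each array left out. No sequences of the probe sets were used here.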

Additional observations from a re-analysis of the deposited data

Results flagged for a closer look

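In 7 of 94 groups of 4 arrays, 1 array stood apart from the other 3 by more than Dixon's 95% critical value for 4 samples. The groups were those of the 47 called Rab and Tbc1d probe sets, and chance alone flags about 1 in 20 groups. One-cell array 1 was the array in 4 of the 7. For Rab4b (1451643_a_at) it read 235.1, with its 3 fellows at 147.8 to 156.3. For Tbc1d1 (1419446_at) it read 254.9, against 127.8 to 135.2. It was low for Tbc1d19 (1424918_at), at 650.1 against 1568.4 to 1781.7, and for Tbc1d8 (1416996_at), at 1184.8 against 2299.5 to 2433.0. MII array 1 was low for Rab38 (1439628_x_at), at 556.0 against 902.8 to 955.3. For Rab2a (1419946_s_at), MII array 1 read 72.8 against 53.3 to 54.5, and one-cell array 2 read 150.9 against 103.8 to 108.8.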

How the results depend on the processing

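Of the 47 calls, 23 held in all 18 alternative fits and 35 held without each single array in every fit that tested them. Rab3b, Rab4b and Tbc1d20 1426644_at were tested in only some of those fits. With each array centred on its median 26 of the 47 held, with 21 Rab calls in place of 32 and 9 Tbc1d calls in place of 15. Quantile normalization kept 36, the control covariate 34, no filter 40, no variance trend 41, array weights 44, an offset of 1 46 and an offset of 50 all 47. A filter at the 75th percentile kept the 42 it tested. Leaving out 1 array gave 22 to 32 Rab calls, the lowest without one-cell array 4, and 12 to 14 Tbc1d calls, 44 to 61 partner calls and 6001 to 7690 over all probe sets. It gave 0 pairs of probe sets past adjustment and 7 to 10 paralog pairs at an unadjusted p under 0.05 in place of 10. The 0 says little, since the exact test on so few arrays can hardly pass that adjustment. limma on the pair differences called 13 pairs where the exact test called 0. Rab33b 1423083_at turned from −0.01 to 0.83 with the control covariate (adjusted p = 0.0459). Of the 73 uncalled probe sets 17 gained a call in some fit, and 38 changed sign in some fit while uncalled in both.

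Replicate numbers did not pair the arrays: deviations of same-numbered arrays correlated at −0.159, −0.109, 0.143 and 0.0395. With the replicate block 7209 probe sets were called, 29 Rab, 14 Tbc1d and 55 partner probe sets among them. No other call of the 47 was lost with it than those of Rab10 1422664_at, Rab2a 1419946_s_at, Rab3d 1449260_at and Tbc1d8 1416996_at.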
